A study of Rattus norvegicus with 6 samples.

Results

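The genes described here are 44 genes of the lysosome: 11 lysosomal proteases, 9 lipid hydrolases and their activators, 10 hydrolases of glycans and glycosaminoglycans, 2 cholesterol exporters, 6 membrane proteins and channels, 4 proton pump proteins, and the regulator Tfeb with the granulin precursor Grn. They were chosen by gene symbol from a table of 30562 rows, each of the 44 symbols matched 1 row, and 43 passed the filter on low counts with 14060 rows in all. The list was drawn up around Lipa, whose level in the older against the younger tumors was already known, to ask whether Lipa was alone in its difference. The older against younger values of the 44 genes are therefore a description of genes picked with that contrast in view.

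Bulk RNA was sequenced from 6 mammary tumors of inbred F344 rats, 1 library per tumor, with tumors 102, 107 and 116 from 3 older rats and tumors 157, 158 and 167 from 3 younger rats. Both groups carried the same tumor induction, namely 1 oral dose of the carcinogen DMBA (7,12-dimethylbenz[a]anthracene) at 65 mg/kg and a pellet of the progestin MPA (medroxyprogesterone acetate) holding 50 mg for release over 90 days. The older rats were 21 to 23 months old at the DMBA dose and came from a colony of aged animals, whereas the younger rats were 4 months old and came from a commercial breeder, so that age and source of the animals cannot be told apart. The younger tumors were every one the study had and the older tumors were those with enough tissue. Untreated mammary gland was not analysed here.

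Lysosomes are acidic compartments in which hydrolases break down proteins, lipids and glycans that arrive by endocytosis or autophagy. Lipa encodes lysosomal acid lipase, which splits the cholesteryl esters and triglycerides of internalized lipoproteins, and the freed cholesterol leaves through NPC2 and NPC1. Many lysosomal genes share a promoter element called CLEAR, built on an E-box, through which TFEB and its relatives can raise their transcription together, and professional phagocytes such as macrophages are rich in lysosomal enzymes.

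The libraries held 3508571 to 6525830 counts, and 3 counts corresponded to 0.518 to 0.995 CPM (counts scaled to a common library size, with the TMM correction for library composition). Tumor 102 stood apart from the rest on the first principal component, which took 40.6% of the variance, and the casein share of the counts ran from 0.594% (tumor 167) to 14.3% (tumor 158). In bulk tumor tissue, fewer cells of a type and less RNA per cell cannot be told apart. The edgeR quasi-likelihood test with Benjamini-Hochberg adjustment, run over all 14060 genes, placed 0 genes at an adjusted p below 0.05 (0% of genes tested), with 1203 genes at an unadjusted p below 0.05 and 368 genes past the adjusted threshold by DESeq2. For a single value, exact permutation of 3 older against 3 younger tumors allows no p below 0.1.

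The promoters of the 4 genes whose older and younger tumors did not overlap are shown first, because their sequence can be set against that of lysosomal genes carrying the CLEAR core. The stretches are the 100 bases before the annotated start in the RefSeq assembly GRCr8, written 5′ to 3′ in the direction of transcription: Lipa at chr1:241470741-241470840 on the minus strand, Ctsh at chr8:99488656-99488755 on the plus strand, Ctss at chr2:185775296-185775395 on the plus strand and Ctsz at chr3:183653848-183653947 on the minus strand.
Lipa: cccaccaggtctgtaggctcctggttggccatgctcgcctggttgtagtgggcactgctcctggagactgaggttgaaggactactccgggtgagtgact
Ctsh: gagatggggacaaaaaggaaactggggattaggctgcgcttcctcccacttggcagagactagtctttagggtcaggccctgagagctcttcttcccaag
Ctss: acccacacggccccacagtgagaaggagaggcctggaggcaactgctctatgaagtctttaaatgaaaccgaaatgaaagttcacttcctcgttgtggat
Ctsz: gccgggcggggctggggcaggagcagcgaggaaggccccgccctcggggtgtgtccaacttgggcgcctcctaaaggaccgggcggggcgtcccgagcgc

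The next 4 promoters are those of members with the 8-letter CLEAR core TCACGTGA in the 100 bases before the start, and capitals mark each match to TCACGTGA or to the E-box core CACGTG it contains: Ctsd at chr1:206968822-206968921 on the minus strand, Lamp1 at chr16:83075064-83075163 on the minus strand, Cln3 at chr1:190597930-190598029 on the minus strand and Atp6v0d1 at chr19:50357249-50357348 on the minus strand.
Ctsd: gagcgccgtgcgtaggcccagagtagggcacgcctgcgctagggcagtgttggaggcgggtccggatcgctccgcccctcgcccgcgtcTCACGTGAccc
Lamp1: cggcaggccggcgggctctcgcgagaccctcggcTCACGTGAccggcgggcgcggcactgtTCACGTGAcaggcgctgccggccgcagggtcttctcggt
Cln3: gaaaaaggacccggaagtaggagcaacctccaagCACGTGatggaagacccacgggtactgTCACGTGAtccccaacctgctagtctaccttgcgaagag
Atp6v0d1: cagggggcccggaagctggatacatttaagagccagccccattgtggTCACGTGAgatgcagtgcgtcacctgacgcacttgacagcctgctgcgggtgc

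Both words read the same on either strand, and TCACGTGA contains CACGTG, so the counts are nested. Promoter windows of 300 bases, 250 before and 50 after the start, were given for 36 of the 44 genes, and CACGTG lay in 10 of them (27.8%): Cln3, Ctsd, Cd63, Glb1, Gaa, Sgsh, Mcoln1, Idua, Lamp1 and Atp6v0d1. Over all 33469 promoters of the same length, 2148 (6.42%) held CACGTG. TCACGTGA lay in 5 of the 36 promoters (13.9%), those of Cln3, Ctsd, Mcoln1, Lamp1 and Atp6v0d1, against 260 of all promoters (0.777%). The Lamp1 window held CACGTG at 5 places, the nearest starting 38 bases before the start. The windows of Lipa, Ctsh, Ctss and Ctsz held neither word, which says only that these letters are not in these windows.

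Lipa was the lysosomal gene with the smallest p, at rank 9 of the 14060 genes tested. Its level was 175 CPM in tumor 102, 129 CPM in tumor 107 and 142 CPM in tumor 116, and 37.8 CPM in tumor 157, 47.0 CPM in tumor 158 and 27.9 CPM in tumor 167. The lowest older tumor lay above the highest younger tumor, and the groups did not overlap. Mean levels were 149 ± 23.7 CPM (SD, n = 3) in older and 37.6 ± 9.56 CPM (SD, n = 3) in younger tumors, a log2 fold change of 1.98 with a standard error of 0.28 (3.95-fold). The adjusted p of edgeR was 0.165, and leaving out each tumor in turn gave log2 fold changes from 1.81 to 2.18. DESeq2, run as an alternative, gave an adjusted p of 2.1e-06 for the same gene.

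Lipa was not alone among the 43 genes in having every older tumor above every younger tumor. Ctsh, Ctss and Ctsz, all cathepsins, shared that arrangement, so that 4 of 43 genes (9.3%) did not overlap, against 12.2% of all genes tested in either direction, 6.57% with the older tumors above and 5.58% with them below. At an unadjusted p below 0.05 there were 5 members (11.6%), the same 4 genes and Ctsk, all higher in the older tumors, against 8.56% of all genes in either direction, 5.28% higher and 3.27% lower. The remaining 38 members passed neither criterion, and 0 of 43 passed the adjusted threshold of edgeR, against 4 of them (Lipa, Ctsh, Ctsk and Ctss) with DESeq2, which called 2.32% of its 15881 genes, 1.56% higher in the older tumors. Since Lipa and its list were picked with this contrast known, nothing is read from the gap between these shares and those of all genes.

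**Figure D1:**
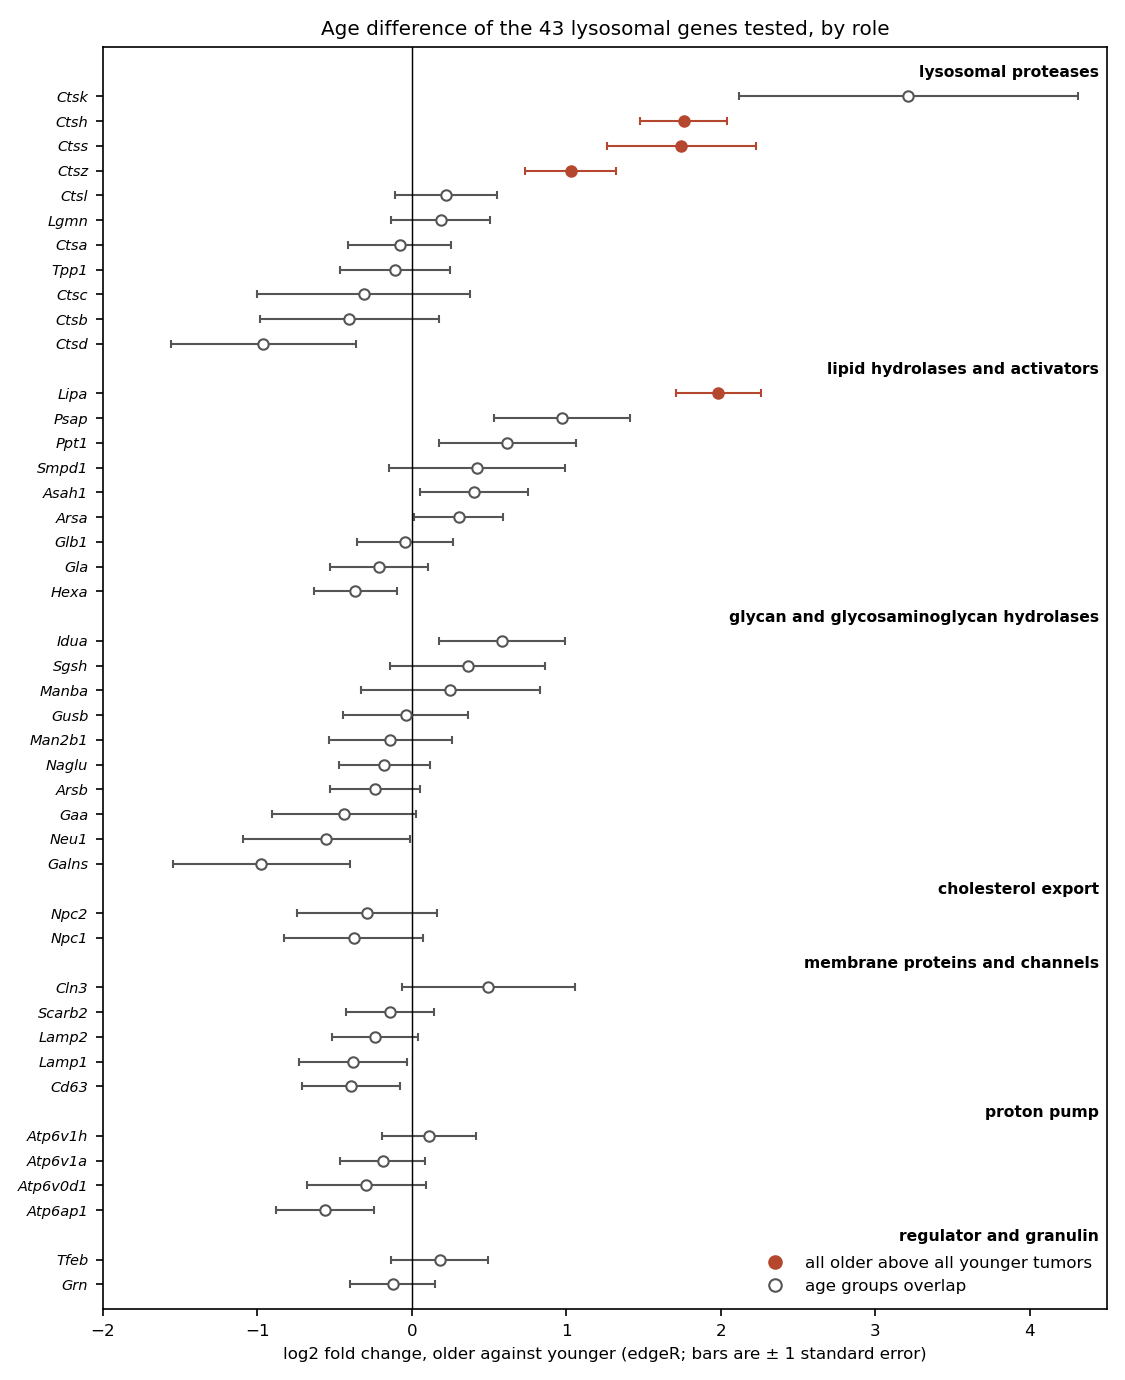
Older minus younger log2 fold change of the 43 lysosomal genes tested, grouped by role, as points with bars of 1 standard error from the edgeR fit. Filled points mark the 4 genes whose 3 older and 3 younger tumors do not overlap (Lipa, Ctsh, Ctss and Ctsz), and most other genes lie within 0.5 of 0.

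Over all 6 tumors, fewer of the 43 genes were higher than lower in the older tumors, a count that rested on tumor 158. The log2 fold change was above 0 for 18 genes (41.9%) and below 0 for 25, where 49.6% of all genes tested were above 0. Their median log2 fold change was -0.11, beside a median of -0.0033 over all genes, and without Lipa it was -0.12 with 17 genes higher and 25 lower. Without tumor 158, 32 of 43 members (74.4%) were higher and their median was 0.29, where 51.6% of all genes were higher with a median of 0.017. In 31 genes (72.1%) the log2 fold change lay within 0.5 of 0, close to the 69.5% over all genes. Values above 1 were found for 5 genes, namely Ctsk, Lipa, Ctsh, Ctss and Ctsz, and for 7.68% of all genes, and no member lay below -1. Ctsz at 1.03 was the member just inside that limit, and Psap at 0.97 the one just outside it.

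Of the 11 proteases, 3 had every older tumor above every younger one, a larger share than the 6.57% of all genes. The list was picked with this contrast known, so nothing is read from that gap. Ctsh, a cathepsin with aminopeptidase activity, stood at 213 CPM, 163 CPM and 226 CPM in older tumors 102, 107 and 116, and at 65.5 CPM, 42.1 CPM and 70.4 CPM in younger tumors 157, 158 and 167. All 3 older tumors lay above all 3 younger ones, with a log2 fold change of 1.76 (SE 0.28, adjusted p = 0.201 by edgeR), and the values with each tumor left out ran from 1.57 to 1.90. Ctss, the cathepsin that trims the invariant chain in antigen-presenting cells, stood at 141 CPM, 92.4 CPM and 44.4 CPM in the older tumors and at 21.6 CPM, 41.4 CPM and 19.6 CPM in the younger ones. The groups were separated by the narrow gap between tumors 116 and 158, and the log2 fold change was 1.74 (SE 0.48, adjusted p = 0.343 by edgeR). Ctsz, a carboxypeptidase, stood at 36.5 CPM, 61.5 CPM and 64.0 CPM in the older and at 29.0 CPM, 23.3 CPM and 27.2 CPM in the younger tumors. The log2 fold change of Ctsz was 1.03 (SE 0.29, adjusted p = 0.346 by edgeR), and its row shares genomic space with Nelfcd, from which unstranded counting would not separate it.

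**Figure D2:**
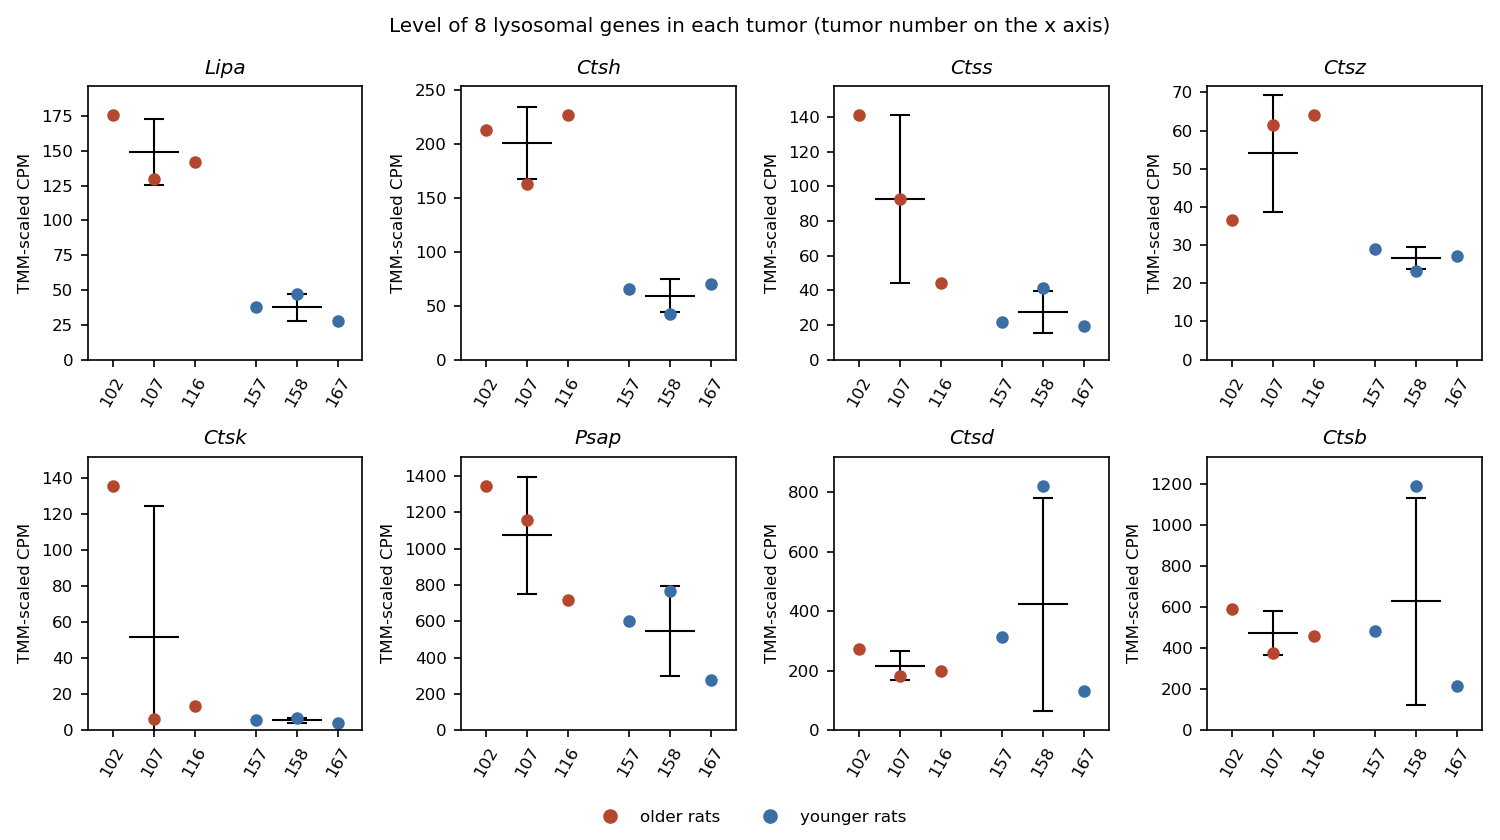
Level in CPM (TMM scaled, vertical axis from 0) of selected lysosomal genes in each of the 6 tumors, with points for single tumors, older and younger side by side, and black bars for the mean ± SD of each group (n = 3); the lower end of a bar that would fall below 0 is cut at 0. The older tumors lie above the younger ones for Lipa, Ctsh, Ctss and Ctsz, and the groups overlap in the other genes.

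Ctsk, a collagen-degrading cathepsin known from osteoclasts, had the highest log2 fold change of the members, 3.21 (SE 1.097, adjusted p = 0.434 by edgeR), and rested on tumor 102. Its levels were 136 CPM in tumor 102, 5.96 CPM in tumor 107 and 13.6 CPM in tumor 116, against 5.88 CPM, 6.72 CPM and 3.82 CPM in tumors 157, 158 and 167. Tumor 107 fell within the younger range, and without tumor 102 the log2 fold change was 0.83. Summed fibroblast markers were also highest in tumor 102, at 1409 CPM, against 1077 CPM in tumor 157 and 1045 CPM in tumor 158. The 3 collagen genes of that list made up most of these sums, with 995 CPM, 969 CPM and 939 CPM in the same 3 tumors. The other 5 fibroblast markers, split off after their values were seen, summed to 414 CPM in tumor 102, 38.8 CPM in tumor 107 and 139 CPM in tumor 116, and to 108 CPM, 106 CPM and 34.9 CPM in tumors 157, 158 and 167. Adipocyte markers (203 CPM) and immediate early genes (2854 CPM) were highest in tumor 102 too. The part of any of these in the level of Ctsk was not tested.

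The other 7 proteases showed overlapping groups. Ctsd, the aspartic cathepsin, stood at 272 CPM, 182 CPM and 197 CPM in the older tumors and at 314 CPM, 821 CPM and 133 CPM in the younger ones. Tumor 158 was the highest and tumor 167 the lowest of all 6, and the log2 fold change of -0.96 (SE 0.60, adjusted p = 0.769 by edgeR) was -0.04 without tumor 158. Ctsb, a broad cysteine cathepsin, went from -0.40 (SE 0.58) to 0.46 and Ctsc, which activates granule serine proteases, from -0.31 (SE 0.69) to 0.79 when tumor 158 was left out. In tumor 158 Ctsb was at 1189 CPM and Ctsc at 839 CPM, against 213 CPM and 131 CPM in tumor 167. Ctsa, Ctsl, Lgmn and Tpp1 had log2 fold changes from -0.11 to 0.22.

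Among the lipid hydrolases, the difference seen in Lipa was not shared in size by any other member. Psap, the precursor of the saposins that help hydrolases reach sphingolipids, came nearest, with 1345 CPM, 1158 CPM and 717 CPM in the older and 599 CPM, 765 CPM and 278 CPM in the younger tumors. Tumor 116 lay below tumor 158, so that the groups overlapped, and the log2 fold change was 0.97 (SE 0.44, adjusted p = 0.618 by edgeR). Ppt1, a thioesterase that removes fatty acids from proteins, had a log2 fold change of 0.62 (SE 0.45) with tumor 107 at 201 CPM and the other 5 tumors between 54.4 CPM and 98.2 CPM. Smpd1, acid sphingomyelinase, likewise peaked in tumor 107 at 146 CPM, and its log2 fold change went from 0.42 to -0.45 without that tumor. Asah1 (acid ceramidase) at 0.40, Arsa at 0.30, Glb1 at -0.05, Gla at -0.22 and Hexa at -0.36 had overlapping groups and standard errors of 0.27 to 0.35.

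The share of Lipa within the lysosomal counts restates its difference on another scale and is given as a description. Lipa made up 2.71% of the counts of the 44 genes in tumor 102 (95% exact Clopper-Pearson interval 2.49% to 2.95%), 2.17% in tumor 107 (2.00% to 2.35%) and 2.85% in tumor 116 (2.65% to 3.06%). In the younger tumors it made up 0.779% in tumor 157 (0.679% to 0.889%), 0.570% in tumor 158 (0.504% to 0.643%) and 0.749% in tumor 167 (0.620% to 0.897%). The intervals cover counting error only, not the spread between tumors. For every 100 counts of Ctsd, Lipa had 64.4 counts, 71.3 counts and 72.1 counts in the older and 12.1 counts, 5.73 counts and 21.1 counts in the younger tumors. The 44 genes together took 0.555%, 0.570% and 0.558% of all counts in the older tumors and 0.532%, 0.715% and 0.415% in the younger ones, so that the older values lay inside the younger range.

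Of the 10 hydrolases of glycans and glycosaminoglycans, 0 were at an unadjusted p below 0.05 by edgeR, beside 8.56% of all genes tested. All 10 had overlapping groups, where 12.2% of all genes did not overlap. In this group 3 genes were higher and 7 lower, with a median log2 fold change of -0.16. Galns, which removes sulfate from keratan and chondroitin sulfate, had the lowest log2 fold change of the members over all 6 tumors, -0.97 (SE 0.57, adjusted p = 0.754 by edgeR), which was -0.13 without tumor 158. Its levels were 17.2 CPM, 27.4 CPM and 16.9 CPM in the older and 30.2 CPM, 76.1 CPM and 14.6 CPM in the younger tumors, with tumor 158 far above the rest and tumor 167 the lowest. Neu1, a sialidase, was at -0.56 (SE 0.54) and Gaa, the glycogen-degrading acid glucosidase, at -0.44 (SE 0.47), both highest in tumor 158. Without tumor 158, Neu1 was at 0.19 and Gaa at 0.044. Idua, which acts on dermatan and heparan sulfate, was at 0.58 (SE 0.41), Sgsh at 0.36 (SE 0.50) and Manba at 0.25 (SE 0.58). Arsb at -0.24, Naglu at -0.18, Man2b1 at -0.14 and Gusb at -0.04 completed the group.

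The exporters that carry cholesterol away after its release by lysosomal acid lipase were lower in the mean of the older tumors, with overlapping groups. Npc1, the membrane exporter, stood at 86.9 CPM, 35.5 CPM and 31.1 CPM in the older and at 69.3 CPM, 85.3 CPM and 43.7 CPM in the younger tumors. Tumor 102 was the highest of the 6 and tumors 107 and 116 the lowest, giving a log2 fold change of -0.38 (SE 0.45), which was -0.995 without tumor 102 and -0.12 without tumor 116. Npc2, its soluble partner, had a log2 fold change of -0.29 (SE 0.45), which was 0.46 without tumor 158. Its level was 235 CPM in tumor 158 and 68.3 CPM to 111 CPM in the other 5 tumors.

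Genes of the lysosomal membrane had overlapping groups in all 5 members tested, where 12.2% of all genes did not overlap. Lamp1 and Lamp2, the abundant glycoproteins that line the membrane, had log2 fold changes of -0.38 (SE 0.35) and -0.24 (SE 0.28), and Scarb2, which carries glucocerebrosidase to the lysosome, of -0.14 (SE 0.29). Cd63, a tetraspanin, was at -0.39 (SE 0.32) and Cln3, a membrane protein mutated in a form of Batten disease, at 0.49 (SE 0.56). Mcoln1, the calcium channel TRPML1, did not pass the filter and had 8 counts, 5 counts and 2 counts in the older and 3 counts, 7 counts and 3 counts in the younger tumors. With every gene of at least 1 count tested, Mcoln1 had a log2 fold change of 0.62 (SE 0.93, adjusted p = 0.883 by edgeR).

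The proton pump members had log2 fold changes from -0.56 (SE 0.32) for the accessory subunit Atp6ap1 to 0.11 (SE 0.30) for Atp6v1h, with Atp6v0d1 at -0.30 and Atp6v1a at -0.19. Tfeb, the transcription factor of the CLEAR network, was at 19.6 CPM, 17.9 CPM and 13.6 CPM in the older and 16.2 CPM, 17.0 CPM and 11.7 CPM in the younger tumors. Tumors 102 and 107 lay above every younger tumor and tumor 116 within the younger range, with a log2 fold change of 0.18 (SE 0.31, adjusted p = 0.938 by edgeR). Grn, the precursor of the granulins, was at -0.12 (SE 0.28). The 4 tested members with a CLEAR core in the promoter window were at -0.96 for Ctsd, -0.38 for Lamp1, -0.30 for Atp6v0d1 and 0.49 for Cln3. The groups of each overlapped, and the values turned on single tumors. Without tumor 158, Ctsd was at -0.04, Lamp1 at 0.053, Atp6v0d1 at 0.28 and Cln3 at 1.03. Without tumor 102, Cln3 was at -0.20.

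**Figure D3:**
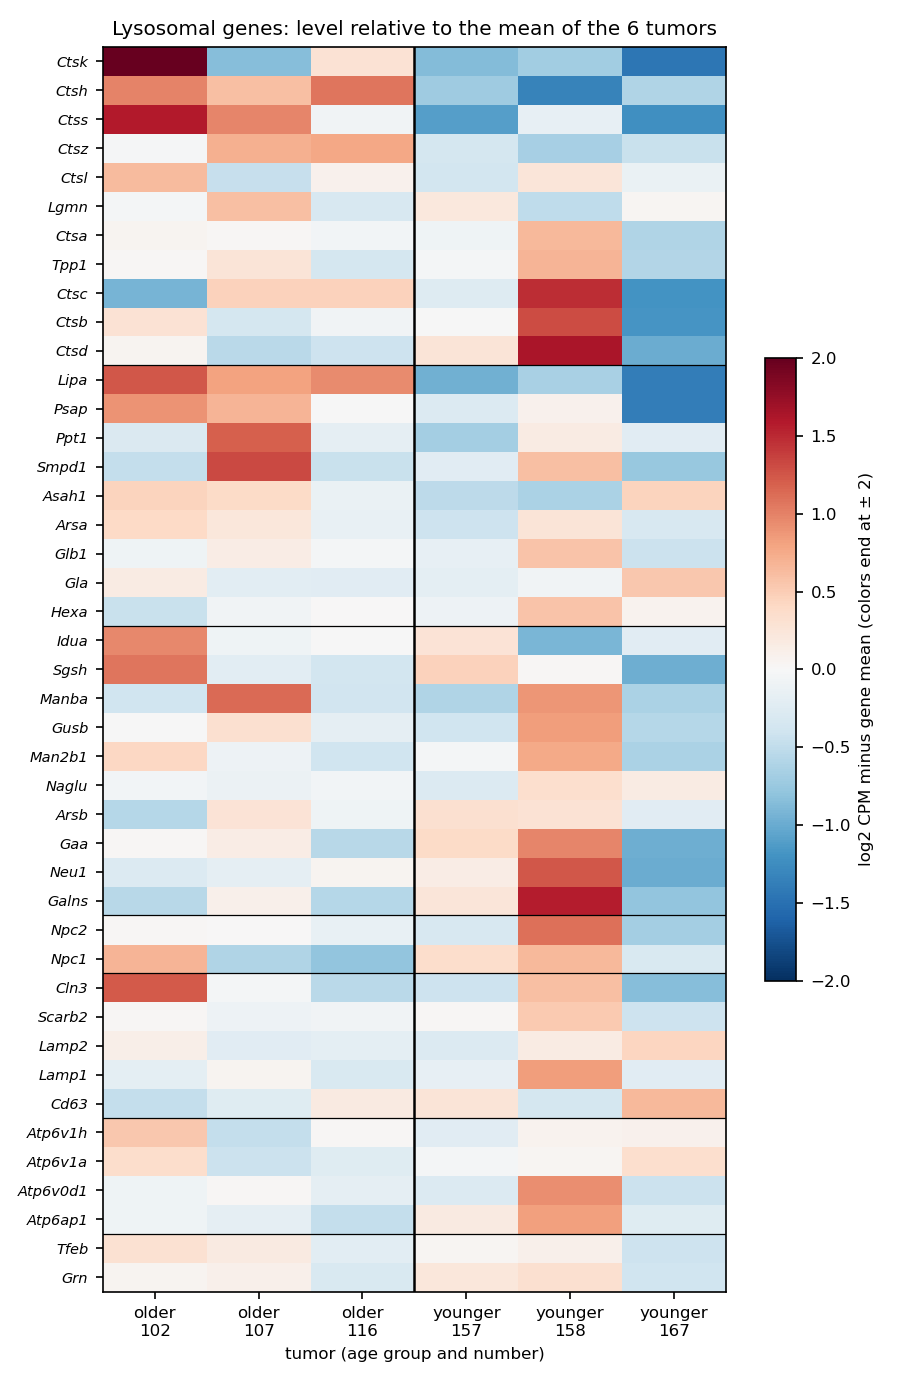
Log2 CPM of the 43 lysosomal genes tested (rows, by role) in the 6 tumors (columns), as the difference from each gene's mean over the tumors, with colors ending at 2 in either direction. Tumor 158 is the highest tumor for 19 genes and tumor 167 the lowest for 24.

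The extremes of the lysosomal genes often fell in the same 2 tumors. Tumor 158 was the highest of the 6 tumors for 19 of 43 members (44.2%), where it was the highest for 16.6% of all genes tested. Tumor 167 was the lowest for 24 members (55.8%), against 18.2% of all genes. Both are younger tumors, so that for many members the younger group spanned the older one. Tumor 102 was the highest for 13 members (30.2%, against 26.0% of all genes), among them Lipa, Ctss, Ctsk, Psap, Idua and Npc1.

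The spread within groups was wider in the median member than in the median gene within the members' range of mean level, without matching on level inside that range. The SD of log2 CPM within age groups had a median of 0.48 over the 43 members and of 0.38 over the 9909 genes in the same range of mean level. It ran from 0.23 for Naglu to 1.64 for Ctsk, and Lipa at 0.31, Ctsh at 0.33 and Ctsz at 0.34 were below the median of the members, whereas Ctss at 0.72 was above it. A small spread within groups also makes a small p and separate groups more likely. The low values of Lipa, Ctsh and Ctsz are therefore not a separate result. Leaving out a tumor makes overlap rarer for every gene: without tumor 158, 14 of 43 members (32.6%) did not overlap beside 23.5% of all genes, and without tumor 167 it was 13 members (30.2%) beside 25.9%. Without tumor 167, 9 members (20.9%) were at an unadjusted p below 0.05 beside 8.32% of all genes. The direction of 23 members changed when some tumor was left out and that of 20 held, Ctsk and Psap among them. Lipa, Ctsh, Ctss and Ctsz are among these 20 by construction. Groups that do not overlap keep their order when any single tumor is left out.

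**Figure D4:**
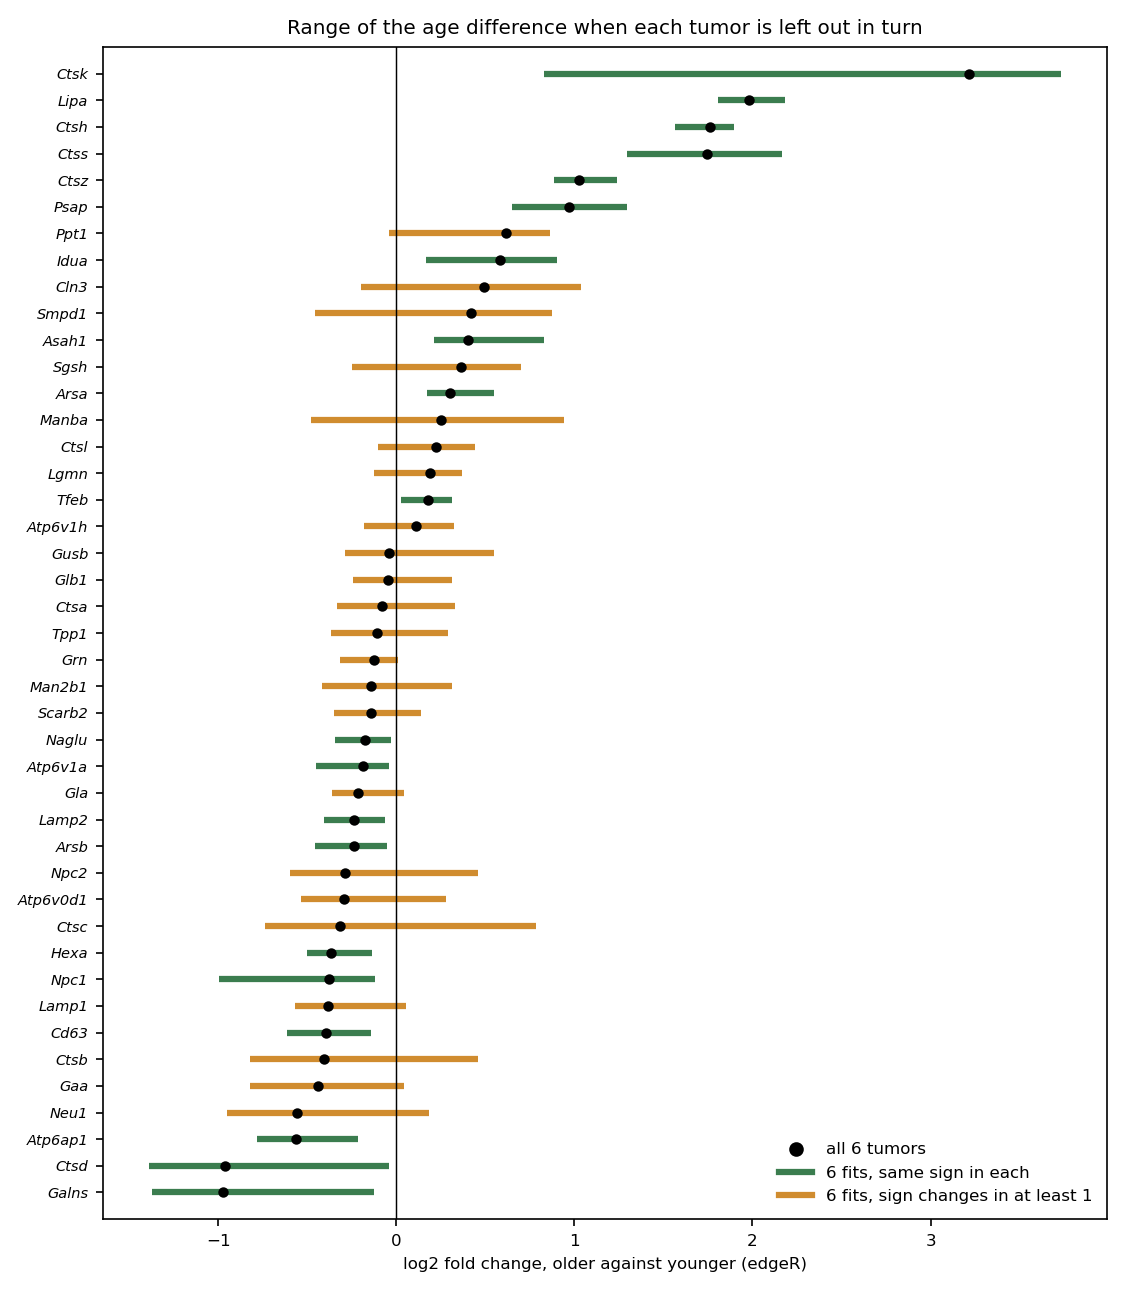
Log2 fold change (older minus younger) of each lysosomal gene with all 6 tumors and its range when each tumor is left out in turn. The ranges are 1.81 to 2.18 for Lipa, 1.57 to 1.90 for Ctsh and 0.83 to 3.73 for Ctsk, and 23 genes cross 0. Genes whose groups do not overlap, such as Lipa and Ctsh, stay on the same side of 0 by construction. Lipa was also picked with this contrast known, so its range is a description only.

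Markers of macrophages, cells with a large lysosomal content, moved with the groups. Of 17 listed macrophage markers 16 were tested, 14 were higher and 2 lower in the older tumors, 9 were at an unadjusted p below 0.05 (56.2%, all higher, beside 5.28% higher among all genes, and 6 to 12 markers with each tumor left out) and 8 did not overlap (50.0%, all with the older tumors above, beside 6.57%), with a median log2 fold change of 1.26. Their summed level was 1129 CPM, 1824 CPM and 957 CPM in the older and 527 CPM, 802 CPM and 304 CPM in the younger tumors, and Marco was at 0 in all 6. These sums turned on single genes, left out after their values were seen. Without Lyz2 the sums were 635 CPM, 1012 CPM and 634 CPM in the older and 390.0 CPM, 722 CPM and 263 CPM in the younger tumors, and tumor 158 lay above tumors 102 and 116. Without Cd14, which was at 412 CPM in tumor 158, they were 1024 CPM, 1697 CPM and 739 CPM against 430.5 CPM, 391 CPM and 246 CPM, and the groups did not overlap. The summed level was highest in tumor 107 in each case. The part of macrophages in the levels of Lipa and the cathepsins was not tested.

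Sums of other cell type markers were set beside these. Summed mast cell markers were 250 CPM to 289 CPM in the older and 66.4 CPM to 163 CPM in the younger tumors, but this gap was that of Kit, a receptor that other cells also carry. Without Kit, left out after its values were seen, the remaining 5 mast cell markers summed to 12.3 CPM, 111 CPM and 2.53 CPM in the older and 30.4 CPM, 4.60 CPM and 113 CPM in the younger tumors, and the groups overlapped. T cell markers were at 16.2 CPM to 84.3 CPM in the older (72.4 CPM of the highest sum being Cd8a, in tumor 107) and 5.13 CPM to 8.47 CPM in the younger tumors. Of 8 listed T cell markers 6 had a row, and only Cd8a and Cd3e passed the filter. Cd2, Cd3d, Cd3g and Cd5 were at 0 CPM to 5.29 CPM, many of these values near the level of 3 counts. B and plasma cell markers were 4.41 CPM to 21.4 CPM against 1.67 CPM to 4.07 CPM, with Cd79b and Ms4a1 at 0 in every tumor. That gap was Jchain alone, and without it, left out after its values were seen, the other 5 markers summed to 0.332 CPM to 0.973 CPM in the older and 1.06 CPM to 1.56 CPM in the younger tumors, near the level of 3 counts. Adipocyte markers were 22.6 CPM to 203 CPM in the older, highest in tumor 102, where Fabp4 made up 130 CPM, and 7.16 CPM to 21.1 CPM in the younger tumors. In tumor 107, Lep, which did not pass the filter, made up 24.3 CPM of the 41.9 CPM. All 4 adipocyte markers that passed the filter had overlapping groups. Luminal epithelial markers, which define the labelled mammary tissue, were present in every library at 1371 CPM to 1484 CPM in the older and 1773 CPM to 2004 CPM in the younger tumors. Immediate early genes, which can respond to handling of tissue, were at 2854 CPM in tumor 102 and 703 CPM to 1196 CPM in the others. The part of each of these in the lysosomal values was not tested.

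**Figure D5:**
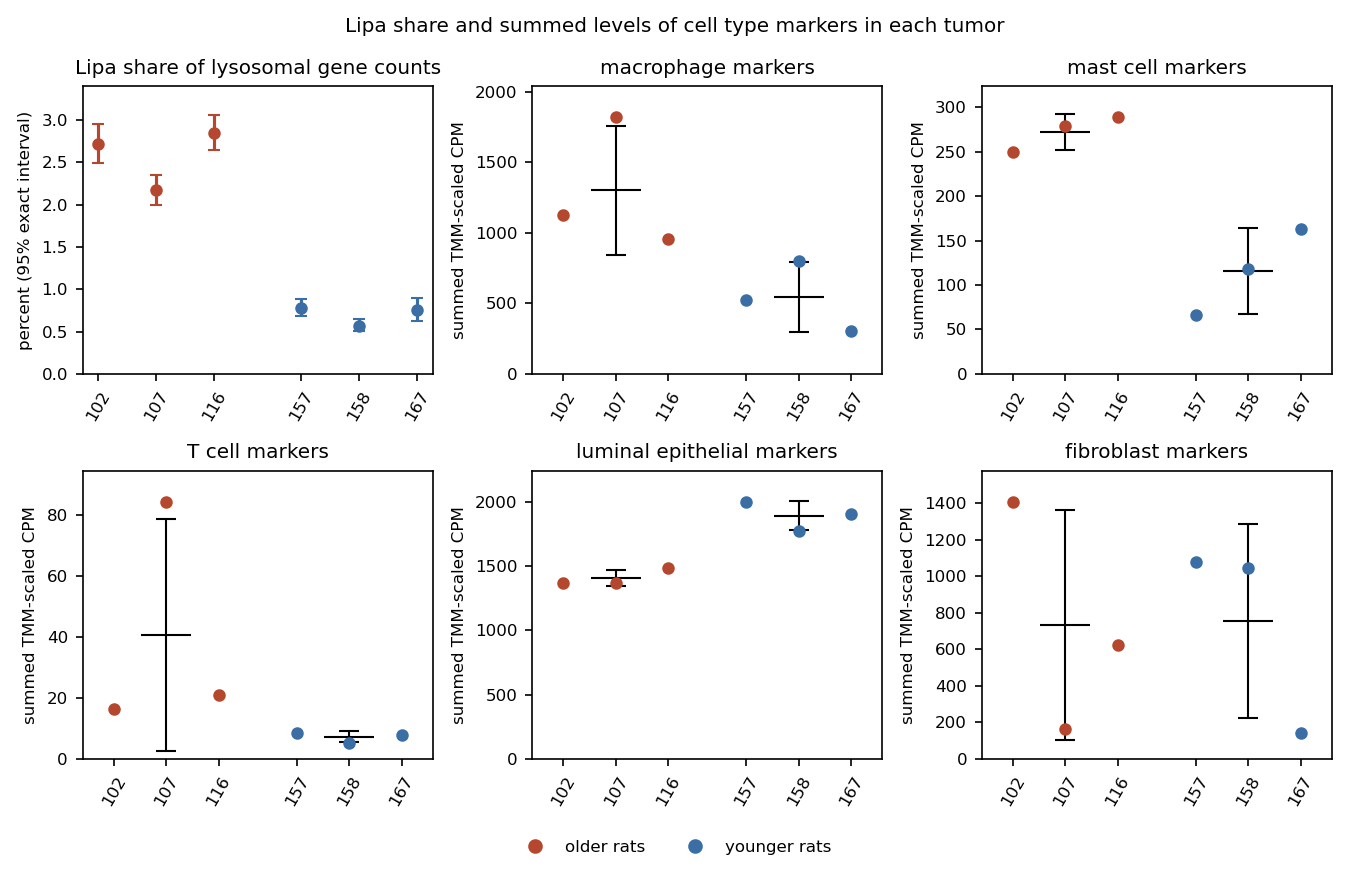
Per tumor values (points) of the share of Lipa in the counts of the 44 lysosomal genes, in percent with 95% exact binomial intervals, and of summed marker levels in CPM, with black bars for the mean ± SD of each group (n = 3). The older tumors lie above the younger ones in the Lipa share (2.17% to 2.85% against 0.570% to 0.779%) and in summed macrophage markers (957 CPM to 1824 CPM against 304 CPM to 802 CPM), although without Lyz2 the macrophage sums overlap.

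Genes of the same pathways outside the 44 were counted in the same way. Of 129 genes in 6 further lists 107 were tested, 52 were higher and 55 lower, the median log2 fold change was -0.03, and 7 higher and 4 lower genes (10.3%, beside 8.56% of all genes) had an unadjusted p below 0.05. The edgeR test placed 0 of them past the adjusted threshold. DESeq2 placed 2, Laptm5 among them, where it called 2.32% of its 15881 genes. Of the 107 genes 13 did not overlap (12.1%, beside 12.2% of all genes), 6 with the older tumors above. Of the 47 other lysosomal genes tested 21 were higher and 26 lower, with a median of -0.10, 4 higher and 1 lower at an unadjusted p below 0.05, and 4 with the older tumors above and 3 with them below without overlap. Among them Laptm5, a lysosomal membrane protein of blood cells, had the smallest p, at 87.2 CPM, 159 CPM and 41.2 CPM in the older and 22.98 CPM, 18.9 CPM and 21.2 CPM in the younger tumors (log2 fold change 2.19, SE 0.47, adjusted p = 0.264 by edgeR). Cd68, a lysosomal glycoprotein that is also on the macrophage list, followed at 1.34 (SE 0.38) and Pla2g15, a lysosomal phospholipase, at 0.85 (SE 0.32), both without overlap.

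Acidification and regulation were examined next. Of 14 other proton pump subunits tested 4 were higher and 10 lower, with a median of -0.26, where 49.6% of all genes were higher. Atp6v1d at -0.77 (SE 0.27) was the 1 subunit with all older below all younger tumors, beside 5.58% of all genes. The 17 regulators and mTORC1 docking genes had 9 higher and 8 lower and a median of 0.04. Mitf, a relative of Tfeb, was at 78.9 CPM in tumor 102 and 9.07 CPM to 17.3 CPM in the other 5 tumors, with overlapping groups. Rraga, a small GTPase that recruits mTORC1 to the lysosome, was at -0.66 (SE 0.33). It was the 1 gene of these 17 without overlap, with the older tumors below, again beside 5.58% of all genes. Receptors and enzymes of mannose 6-phosphate sorting deliver new hydrolases to lysosomes. Of these 10 genes, 0 passed an unadjusted p below 0.05 by edgeR, beside 8.56% of all genes tested. Igf2r at -0.57 (SE 0.30), M6pr at -0.29 (SE 0.22) and Sorl1 at 1.11 (SE 0.60) had overlapping groups.

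Around the acid lipase step itself, genes for the uptake of lipoproteins and their lipids were examined. Vldlr, a lipoprotein receptor, had all older tumors below all younger ones, with a log2 fold change of -0.76 (SE 0.23, adjusted p = 0.366 by edgeR). Msr1, a scavenger receptor that is also on the macrophage list, was higher at 1.33 (SE 0.41), with all older tumors above all younger ones. Of all genes tested, 6.57% had the older tumors above and 5.58% below without overlap. Lpl, the lipase of the vessel wall, was at 500.1 CPM, 396 CPM and 253 CPM in the older and 61.9 CPM, 209 CPM and 70.0 CPM in the younger tumors, with a log2 fold change of 1.75 (SE 0.53, adjusted p = 0.366 by edgeR). Of the 17 genes of cholesterol and neutral lipid handling tested, 12 were higher and 5 lower, beside 49.6% of all genes higher, with 2 in each direction at an unadjusted p below 0.05 beside 5.28% of all genes higher and 3.27% lower at that p.

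The genes beside Lipa in the RefSeq list, chosen after its value was known, did not separate the groups. Ch25h, an oxysterol-forming hydroxylase, had a log2 fold change of 1.92 (SE 0.70, adjusted p = 0.478 by edgeR) on 3 to 33 counts, and Ifit2, an interferon-induced gene, of 0.49 (SE 0.36, adjusted p = 0.813 by edgeR), both with overlapping groups. Lipa, Ctsh and Ctss overlap no other gene in that list, whereas 21 of the 44 members do, among them Psap with Cdh23, Ctsd with Tnni2 and Ctsk with Eef1e1-ps1, and their counts may include reads of the partner.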

How the data were processed

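Total RNA of 6 flash-frozen mammary tumors, 3 older and 3 younger, was sequenced. The authors deposited whole-number read counts per gene without normalization. The submitters' processing notes name FastQC 0.11.7, Trimmomatic 0.38, STAR 2.7.9a, Picard 2.18.12, HTSeq 0.13.5, DESeq2 and the build mRatBN7.2. The labels give polyA RNA and reads of 100 bases, and the methods of the study give ribosomal RNA depletion and 150 bases. The annotation and the strand setting of counting are not given in the sources used here, so overlapping genes cannot be told apart.

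The analysis used edgeR 4.0.16 in R 4.3.3. Genes were kept by filterByExpr with the age group (14060 of 30562 rows), libraries were scaled by TMM, and the 2 age groups were set against each other with the quasi-likelihood test (two-sided, no covariates). P-values were adjusted by Benjamini-Hochberg over all genes tested, with 0.05 as the threshold. Each standard error is the log2 fold change divided by the square root of F. A prior count of 2 entered log2 CPM. The 4367 rows without a gene name, 2.17% to 3.64% of the counts, stayed in the fit as features. The table held 0 columns beyond the 6 tumors. The scripts were tested on simulated data. Gene lengths were not used here, so ratios of counts between genes (Lipa to Ctsd, or to all members) are read across tumors only, not as relative levels of the genes.

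The members and gene lists were chosen with earlier results of these data known. Any member could be named, other pathway genes were named by the smallest p, up to 3 per list, and markers were used as lists. The alternatives were DESeq2 1.42.0, limma-voom (limma 3.58.1), DESeq2 size factors, library totals, a looser and a stricter count filter, a table without the 10 genes of highest abundance, a prior count of 0.5, and leaving out each tumor. Those for overlap counts, for other pathway lists and for macrophage, mast cell, fibroblast and B cell markers were added after seeing the data. Promoters came from RefSeq tables of GRCr8, matched by symbol for 36 of 44 members; Arsa, Psap, Arsb, Atp6v1h, Asah1, Ctsb, Hexa and Ppt1 had no entry. Each tumor is a separate library of a separate rat, and p-values measure the spread between these tumors. The values of 1 gene of the pathway lists are not reported here.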

Additional observations from a re-analysis of the deposited data

How the results depend on the processing

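Genes past the adjusted threshold numbered 0 of all genes by edgeR, 368 by DESeq2 and 1 when every gene with at least 1 count was tested, and of the lysosomal genes 0 by edgeR and 4 by DESeq2. Of the other pathway lists 0 passed by edgeR and 2 by DESeq2. The count of 5 lysosomal genes at an unadjusted p below 0.05 was 4 to 9 with each tumor left out (9 without tumor 167), the 18 higher in older tumors were 14 to 32 (32 without tumor 158), and the 4 without overlap were 5 to 14 (7 without tumor 102, 8 without tumor 157, 14 without tumor 158 and 13 without tumor 167). Fewer tumors overlap less readily by construction. The 11 genes of the other pathway lists at that p were 7 to 14 (7 without tumor 102). The median log2 fold change of the lysosomal genes, -0.11, was -0.18 to 0.29 with a tumor left out and -0.14 to -0.01 under the other settings, and that of all genes -0.066 to 0.028.

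By limma-voom, Ctsa (0.018), Glb1 (0.012) and Gusb (0.079) turned to above 0, and the cause was not tested. With each tumor left out, the log2 fold changes of 23 genes crossed 0 (14 of them without tumor 158), with these ranges: Ctsa -0.33 to 0.33, Ctsb -0.82 to 0.46, Ctsc -0.74 to 0.79, Ctsl -0.10 to 0.44, Lgmn -0.12 to 0.37, Tpp1 -0.37 to 0.29, Gla -0.36 to 0.041, Glb1 -0.24 to 0.32, Smpd1 -0.45 to 0.88, Ppt1 -0.038 to 0.86, Gaa -0.82 to 0.044, Gusb -0.29 to 0.55, Neu1 -0.95 to 0.19, Man2b1 -0.42 to 0.31, Manba -0.48 to 0.94, Sgsh -0.25 to 0.70, Npc2 -0.60 to 0.46, Lamp1 -0.57 to 0.053, Scarb2 -0.35 to 0.14, Cln3 -0.20 to 1.03, Atp6v0d1 -0.54 to 0.28, Atp6v1h -0.18 to 0.32, Grn -0.32 to 0.012. The other 20 genes kept their direction under every setting run. For Lipa, Ctsh, Ctss and Ctsz, leaving out a tumor could not show otherwise, because their groups do not overlap. All 43 within-group SDs moved by less than 1 SD with a prior count of 0.5. No paired analysis was possible because the groups share no tumor numbers. The limits are 3 tumors a group, totals of 3508571 to 6525830 counts, animals of different source and the unlike cell content of the tumors.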
